A study of Homo sapiens with 3 samples.

Results

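Distal TRRAP peaks without CHD8 are sites at which chromatin immunoprecipitation followed by sequencing (ChIP-seq) gave a TRRAP peak away from gene starts and no CHD8 peak. They were chosen by measured values: a peak of the TRRAP list on chromosomes 1 to 22 or X was kept if it stayed more than 1 kb away from the start of every GENCODE 44 gene, whatever its biotype, and shared no base with a peak of the CHD8 list. There were 1245 such peaks, of 5972 distal TRRAP peaks (20.8%, 95% Wilson interval 19.8 to 21.9), of 14246 TRRAP peaks on these chromosomes and of 14735 in all. The cells were wild-type (WT) human neural stem cells (hNSCs), made from the embryonic stem cell line H9, and every sample shared the same fixation, with 2 mM disuccinimidyl glutarate and 1% formaldehyde, and 14 cycles of sonication. The TRRAP group was precipitated with the Invitrogen antibody PA5-78246, the CHD8 group with the Bethyl antibody A301-225A and the control group with Diagenode IgG C15410206. Each antibody had 1 library, so a peak without CHD8 rests on a single experiment. The IgG library was not analysed here.

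TRRAP is a very large pseudokinase that lacks catalytic activity and serves as the scaffold through which transcription factors recruit the histone acetyltransferase complexes TIP60 and SAGA. CHD8 is an ATP-dependent chromatin remodeler, best known as a gene often mutated in autism. Sites away from gene starts include enhancers, insulators and silencers inside introns or between genes, and also satellite DNA, the tandemly repeated sequence of centromeres and their surroundings, where short reads are hard to place.

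The sequences below were read from the GRCh38 reference at the summits of peaks with TRRAP and no CHD8 to show the kinds of DNA in which they lay. The first 4 are in tandemly repeated DNA, divided further on by the length of the repeat unit: the strongest pair of peaks with a unit of other length, then the strongest with a unit of at most 10 bases and the strongest with a unit of about 170 bases. In the first pair, introns of C7orf50 and of NXN, capitals mark every other block of 18 and 45 bases. This is the shortest shift at which the sequence matched itself about as well as at its best shift. The blocks have a fixed length, so in C7orf50, where the spacing of the repeat varies, they drift out of step with it. In the third, capitals mark the word GGAATGGAA of pericentromeric satellite DNA. In the fourth, a satellite with a unit of about 170 bases, capitals mark the box bound by the centromere protein CENP-B.
C7orf50 intron, chr7:1002582-1002782, plus strand: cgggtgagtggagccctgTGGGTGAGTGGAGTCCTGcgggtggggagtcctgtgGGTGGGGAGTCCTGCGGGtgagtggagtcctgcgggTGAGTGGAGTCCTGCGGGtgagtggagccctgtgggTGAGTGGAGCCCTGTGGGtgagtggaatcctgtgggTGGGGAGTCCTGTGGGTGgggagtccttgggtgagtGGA
NXN intron, chr17:835917-836117, plus strand: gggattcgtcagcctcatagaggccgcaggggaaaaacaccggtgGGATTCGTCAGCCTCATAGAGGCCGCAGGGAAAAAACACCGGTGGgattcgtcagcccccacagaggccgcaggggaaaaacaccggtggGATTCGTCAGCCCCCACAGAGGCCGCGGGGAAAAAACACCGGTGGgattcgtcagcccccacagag
Short-period satellite, chr10:38573439-38573589, plus strand: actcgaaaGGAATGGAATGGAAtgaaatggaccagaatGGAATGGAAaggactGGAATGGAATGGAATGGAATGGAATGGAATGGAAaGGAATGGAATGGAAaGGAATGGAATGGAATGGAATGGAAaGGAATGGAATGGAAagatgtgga
Satellite with an alpha-length unit, chr19:26986149-26986349, plus strand: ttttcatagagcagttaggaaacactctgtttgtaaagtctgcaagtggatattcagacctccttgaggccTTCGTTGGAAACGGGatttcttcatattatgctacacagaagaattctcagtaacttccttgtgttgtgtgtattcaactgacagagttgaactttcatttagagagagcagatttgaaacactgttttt

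The next 4 are single-copy sequences. The CAMTA1 intron held the strongest single-copy summit and the POU3F3 coding exon the strongest one inside a gene of the neural stem cell list, and capitals mark every CG in them. The other two, outside genes, 6657 bp from the pseudogene KRT18P9, and in an intron of LHFPL6, were the strongest single-copy summits with a word of the insulator protein CTCF and of the AP-1 factors, and capitals mark the word.
CAMTA1 intron, chr1:7704944-7705144, plus strand: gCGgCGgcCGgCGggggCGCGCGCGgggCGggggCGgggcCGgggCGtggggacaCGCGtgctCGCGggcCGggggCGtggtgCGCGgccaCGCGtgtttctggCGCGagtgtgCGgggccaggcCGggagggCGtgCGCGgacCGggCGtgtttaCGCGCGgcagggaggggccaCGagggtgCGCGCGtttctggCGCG
POU3F3 coding exon, chr2:104855756-104855856, plus strand: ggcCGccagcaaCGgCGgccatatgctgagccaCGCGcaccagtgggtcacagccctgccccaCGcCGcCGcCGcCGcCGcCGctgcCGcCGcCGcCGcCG
Outside genes, CTCF word, chr6:34196337-34196537, plus strand: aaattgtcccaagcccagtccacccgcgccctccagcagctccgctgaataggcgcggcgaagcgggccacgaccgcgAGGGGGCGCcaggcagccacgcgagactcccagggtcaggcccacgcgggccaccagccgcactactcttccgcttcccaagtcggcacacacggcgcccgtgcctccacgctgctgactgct
LHFPL6 intron, AP-1 word, chr13:39565748-39565948, plus strand: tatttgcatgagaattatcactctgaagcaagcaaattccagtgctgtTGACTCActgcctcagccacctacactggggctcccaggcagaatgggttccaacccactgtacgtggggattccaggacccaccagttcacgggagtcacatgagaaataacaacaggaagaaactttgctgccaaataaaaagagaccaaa

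The last set shows short stretches around the E-box of MYC and MAX in the strongest single-copy summit holding it, and around the 4 exact matches to the core of the REST element. REST is the repressor that keeps neuronal genes silent outside neurons, and in neural progenitors. Capitals mark the word, which is written on the strand that holds it.
PRDX4 intron, E-box, chrX:23667399-23667427, plus strand: cggccggcgccCACGTGgcggggcgggga
GRIA2 intron, REST, chr4:157220385-157220413, minus strand: ggcctttCAGCACCGAGGACAGcgcctcg
SCN3B exon, REST, chr11:123654063-123654091, plus strand: cggcgctCAGCACCACGGACAGtcgcctc
RESP18 intron, REST, chr2:219331740-219331768, minus strand: cacctctCAGCACCACGGACAGcgccagg
Near NKX1-1, REST, chr4:1410583-1410611, plus strand: acagcgcCAGCACCGCGGACAGcgcgctc

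Of 8 neural stem cell marker genes, 5 (HES5, NES, SOX1, SOX2 and VIM) had a TRRAP peak at the gene start, and PAX6, FABP7 and SLC1A3 had none. Such a peak was at 1 of 4 pluripotency genes (DPPA4), 1 of 4 neuronal genes (SYT1) and 0 of 5 genes of other tissues (ALB, HBB, MYOD1, CDX2 and INS). The same genes carried CHD8, with FABP7 in addition. None of these 21 genes held a distal TRRAP peak without CHD8. A peak at a gene start is not a measure of expression. The share of all gene starts with a peak was not computed, so these small counts cannot check the labelled cell type. The names of the lists give a false discovery rate of 0.001 for TRRAP and of 0.0001 for CHD8, so absence of CHD8 means absence from the stricter list. Only 1 of the 1245 peaks had a TRRAP q-value above 0.0001.

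TRRAP was weaker at distal sites without CHD8 than at distal sites with it. The fold, which is the authors' ratio of signal to the peak caller's background and is given per peak, ran from 4.82 to 31.1 with a median of 7.21 (25th to 75th percentile 6.73 to 8.65). At the 4727 distal TRRAP peaks with CHD8 the median fold was 8.65 (7.21 to 11.5) and the highest was 106.6. The median −log10 q was 7.49 without CHD8 and 10.99 with it, and the median width was 159 and 230.0 bp. A fold under 10 was given for 89.1% of the peaks without CHD8 (1109) and for 62.1% of those with it. Only 7 of the peaks without CHD8 were among the 1000 strongest of the TRRAP list, and the strongest had rank 227. Folds came in steps of about 0.478, which limits how finely peaks can be ordered.

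The share of distal TRRAP peaks without CHD8 rose as TRRAP weakened. In the strongest decile of distal TRRAP peaks, 11 of 598 lacked CHD8 (1.84%, 1.03 to 3.26). In the second decile the share was 6.37% (4.67 to 8.62), in the fifth 26.5% (23.1 to 30.1) and in the weakest 35.8% (32.1 to 39.8). The sixth decile, at 22.1% (18.9 to 25.6), lay below the fifth, within overlapping intervals. Strength and the absence of CHD8 therefore moved together, and the shares of the sequence classes, of alternative starts and of factor words are also given among weak peaks, the distal TRRAP peaks with a −log10 q of at most its median of 9.79, a comparison chosen after the data were seen.

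**Figure D1:**
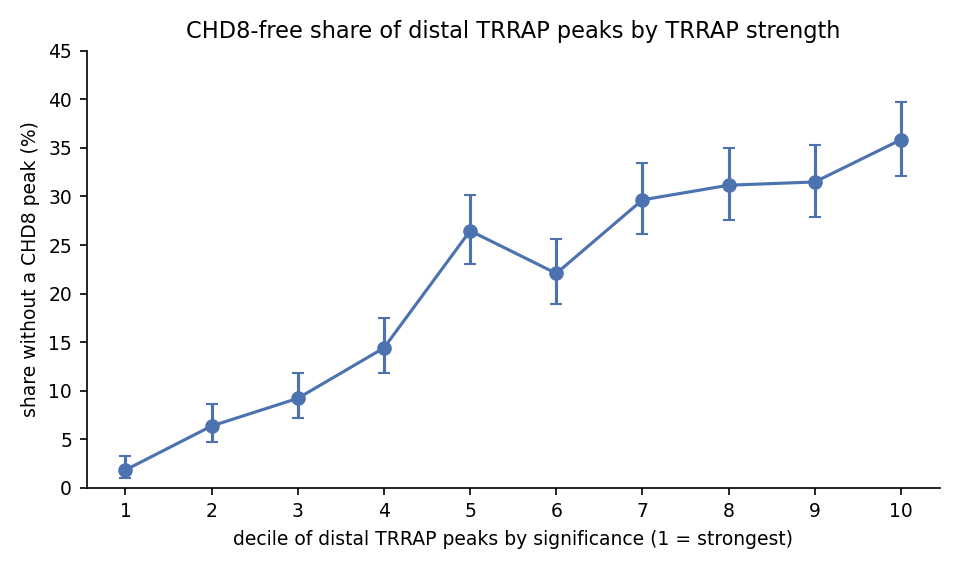
Share of distal TRRAP peaks without a CHD8 peak (percent, vertical axis) in each decile of distal TRRAP peaks ordered by significance, from the strongest (1) to the weakest (10). Points are shares of 597 or 598 peaks and bars are 95% Wilson intervals; the share runs from 1.84% to 35.8%.

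The strongest peak without CHD8 lay in an intron of C7orf50 at chr7:1001172-1004095 (fold 31.1, −log10 q 78.5). It was also the widest, at 2924 bp, and part of its repeat is the first sequence above. The next was in an intron of CAMTA1, which encodes a calmodulin-binding transcription activator, at chr1:7704571-7705444 (fold 28.7, −log10 q 69.6). Its summit window had a GC content of 83.1% and a CpG ratio, observed over expected, of 1.29, and a CHD8 peak began 446 bp away.

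A peak in an intron of NOTUM, the secreted enzyme that inactivates WNT proteins, had a fold of 20.6 (chr17:81959627-81960060, 1973 bp from the gene start). The CAMTA1 and NOTUM peaks both lay within 1 kb of the start of another transcript in the annotation. In the fourth exon of MKRN1, a ubiquitin ligase gene, a coding-exon peak had a fold of 19.6 (chr7:140458935-140459229), with the nearest CHD8 peak 19239 bp away. The second tandem-repeat peak shown above, in NXN, had a fold of 18.7 (chr17:835556-836234). These 5 strongest peaks thus comprised 2 in tandem repeats and 3 in single-copy sequence inside genes.

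Further single-copy peaks of high fold lay in an intron of CBX7, a Polycomb subunit gene (chr22:39145340-39145890, fold 18.2), and in the coding exon of POU3F3, a POU-family factor of neural progenitors (chr2:104855701-104855925, fold 18.2). The third strongest exonic one was in a UTR of CLIP4, which encodes a microtubule-binding protein (chr2:29115184-29115714, fold 12.9). Outside genes the strongest lay 30653 bp from the start of KHDRBS3 (fold 16.3, 593816 bp from the nearest CHD8 peak), at chr5:1667357-1667580 (fold 16.3) and 26230 bp from MAGEF1 (chr3:184685715-184686044, fold 15.8). Most of these strong single-copy summits were rich in G and C, but those near KHDRBS3 and MAGEF1 had a GC content of 45.8% and 54.7% and CpG ratios of 0.389 and 0.0698.

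The distance to CHD8 was part of the choice and is given as a description. The median gap to the nearest CHD8 peak was 9511 bp, and the middle of the distribution, from its 25th to its 75th percentile, spanned 769 to 44800 bp. A CHD8 peak lay under 100 bp away from 83 of the 1245 peaks (6.67%) and between 100 bp and 1 kb from 260 (20.9%), whereas 177 (14.2%) had none within 100 kb. The 3 nearest pairs abutted or almost touched: the gap was 0 bp in an intron of CELF4 (chr18:37394285-37394425), 1 bp in TAFA3 (chr1:112722862-112722993) and 2 bp in LINC02767 (chr1:207963745-207963880). The 3 most remote were in an intron of NRXN3, a synaptic adhesion gene (chr14:79279098-79279305, 1478757 bp), in FAM230C (chr13:18212020-18212175, 1389556 bp) and in satellite DNA at chr22:13692056-13692186 (999579 bp).

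Peaks just inside and just outside the rule had like values. The 83 peaks under 100 bp from CHD8 had a median fold of 7.21, and so had the 213 distal TRRAP peaks that shared fewer than 100 bases with CHD8. The 26 peaks lying 1000 to 1200 bp from a gene start had a median fold of 7.69, beside 7.21 for the 43 CHD8-free TRRAP peaks lying 800 to 1000 bp from one.

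**Figure D2:**
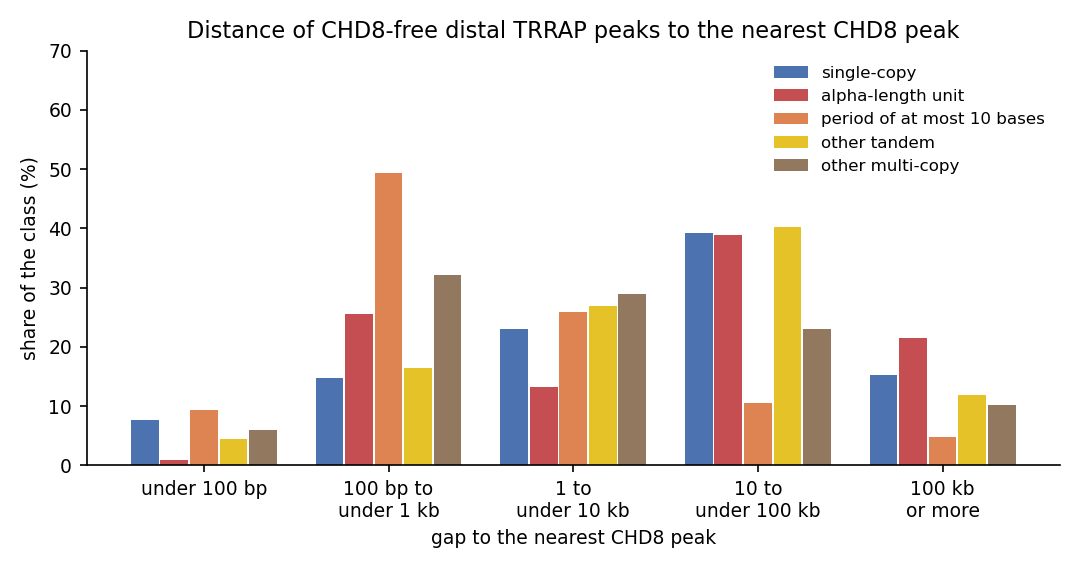
Gap to the nearest CHD8 peak (horizontal axis, 5 ranges) as a share of each sequence class of the CHD8-free distal TRRAP peaks (percent, vertical axis; 785, 121, 85, 67 and 187 peaks in the order of the legend). Peaks with a unit of at most 10 bases lie closest, with 49.4% at 100 bp to 1 kb, and 39.2% of single-copy peaks lie at 10 to 100 kb.

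The 1245 summits fell into 5 sequence classes. A summit was multi-copy if its 32-base words, taken within 50 bp, occurred more than 1 time (median) in the reference, and tandem if at least 70% of the bases within 150 bp matched the base a fixed distance of at most 200 bases further on. A unit of about 170 bases (from 5 fewer to 7 more), the unit length of the alpha satellite of centromeres, was also called from 50% identity within 500 bp. Of the peaks, 121 had such an alpha-length unit (9.72%, 8.20 to 11.5), 85 a unit of at most 10 bases (6.83%, 5.55 to 8.37), 67 another tandem unit (5.38%, 4.26 to 6.78) and 187 were multi-copy without a tandem unit by these limits (15.02%, 13.1 to 17.1). The remaining 785 were single-copy (63.1%, 60.3 to 65.7). The other multi-copy class can still hold satellite DNA. Its peak at chr12:34834893-34835035 had a median of 3442 copies of its summit words and a CENP-B box. The division by unit length was made after the data were seen.

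Every one of the 4 repeat classes took a larger share of the distal TRRAP peaks without CHD8 than of those with it. The difference was 3.46 percentage points for alpha-length units (95% Newcombe interval 1.77 to 5.35), 2.87 for short units (1.47 to 4.49), 3.29 for other tandem units (2.08 to 4.73) and 4.38 for other multi-copy summits (2.29 to 6.64). Single-copy summits were 77.05% of the peaks with CHD8, a difference of −14.0 points (−17.0 to −11.1). Among weak peaks the single-copy share was 65.4% without and 88.3% with CHD8, and the difference was −22.9 points (−26.4 to −19.6). The difference for other multi-copy summits was then 10.1 points (7.61 to 12.8) and that for short units 4.73 (3.19 to 6.58). These intervals cover counting error only, and neighbouring peaks are not independent. Among peaks with no neighbour of their own set within 10 kb, the single-copy difference was −11.04 points (−14.0 to −8.23), but that for short units was 0.396 points (−0.332 to 1.44) and its interval included 0. Alpha-length units then differed by 6.66 points (4.90 to 8.72), other tandem units by 1.98 (0.879 to 3.42) and other multi-copy summits by 2.00 (0.154 to 4.12). Neighbours of the other set were not counted, so this filter removed a larger share of the larger set. It left 75 of 121 alpha-length peaks without CHD8 and 49 of 296 with it, so the filter itself affects these differences. The sizes of these differences thus varied with the peaks compared.

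Repeats had their highest shares at distal TRRAP peaks, without CHD8 and with it. All 4 repeat classes together made up 36.9% of the distal TRRAP peaks without CHD8, 22.95% of those with it, 4.70% of the 8274 TRRAP peaks at gene starts and 6.29% of the 5406 distal CHD8 peaks without TRRAP. At 29105 evenly spaced genome positions, 100 kb apart, they made up 16.6%, of which 14.5 points were multi-copy sequence without a tandem unit by the limits used. Compared with those positions, CHD8-free TRRAP peaks thus held more tandem DNA (a unit of at most 10 bases at 6.83% against 0.0756%). The share of the other multi-copy class was alike (15.02% against 14.5%), but what kinds of repeat make it up in each set was not tested. How the aligner treated reads that fit several places is not given in the sources used here, and its part in these shares was not tested.

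**Figure D3:**
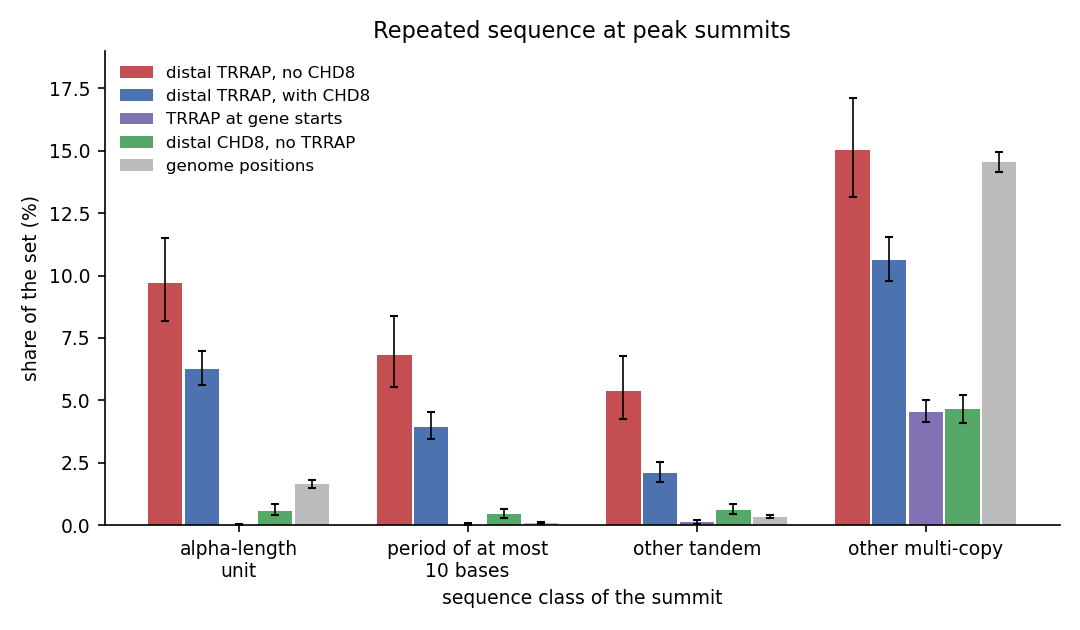
Share of summits (percent, vertical axis) in each class of repeated sequence, for distal TRRAP peaks without CHD8 (1245), distal TRRAP peaks with CHD8 (4727), TRRAP peaks at gene starts (8274), distal CHD8 peaks without TRRAP (5406) and 29105 genome positions. Bars carry 95% Wilson intervals; CHD8-free distal TRRAP peaks have the highest bar in each class, with an interval that overlaps that of the genome positions in the last.

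Peaks in satellite DNA with an alpha-length unit had folds of 5.78 to 13.4 (median 8.17), a median GC content of 38.8% and a median of 513 copies of their summit words. Chromosome 9 held 24 of the 121, chromosome 1 held 20, chromosome 19 held 16 and chromosome 5 held 14. Of the 121, 52 carried an exact CENP-B word, TTCG, 4 bases of any kind, A, 2 bases of any kind, CGGG (43.0%), and 121 of the 296 peaks of this class with CHD8 did (40.9%). Over all 1245 CHD8-free peaks, 81 carried the word, so some holders lay outside this class. The word occurs in 0.883% of all genome windows of the same length, 100 bp on each side of a centre. Over all 1245 CHD8-free peaks it was at 6.51% of summits and at 5.90% of positions 1 kb beside them, so it was almost as frequent beside the summits. The strongest peak with an alpha-length unit, at chr19:26986143-26986343 (fold 13.4), is the fourth sequence above. In chr9:60642791-60688407, 10 CHD8-free peaks stood among 36 distal TRRAP peaks with CHD8, so peaks of both kinds lay side by side in the same array.

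Of the 85 peaks with a unit of at most 10 bases, 67 had a unit of 5 bases and 67 carried the word GGAATGGAA, which 0.374% of genome windows hold. Over all 1245 CHD8-free peaks the word was at 6.59% of summits and at 6.14% of positions 1 kb beside them. Chromosomes 4 and 10 each held 24 of the 85 peaks. Their folds ran from 5.30 to 12.9 (median 7.69) and their median gap to a CHD8 peak was 609 bp, the shortest of the 5 classes. The largest cluster of all, with members no more than 10 kb apart, was an array of this kind at chr10:41853628-41916263, with 24 CHD8-free peaks of folds 5.78 to 10.1 (median 7.21). The same 62.6 kb held 40 distal TRRAP peaks with CHD8.

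The 67 other tandem peaks had a median unit of 41 bases, from 16 to 200, and a median GC content of 61.2%. The largest group was a cluster of 18 peaks in 28.7 kb at chr1:2653995-2682691, 14 of them tandem, of which some lay in TTC34, and MMEL1 was the nearest gene for all 18. Their folds were low, 5.78 to 9.12. Among the 187 other multi-copy peaks, 45 were on chromosome 8, and 44 of these sat in the array of REXO1L pseudogenes between 85643611 and 85826744. The 5 clusters there held 46 peaks of all classes, with folds of 5.30 to 8.65, a median copy number between 9 and 11 and 0 to 5 distal TRRAP peaks with CHD8 inside each, and 19 over the whole stretch. Chromosome 8 had a CHD8-free share of 34.6% of its distal TRRAP peaks (28.9 to 40.8) and chromosome 21 one of 35.8% (26.9 to 45.8), whereas chromosome 2 had the lowest, 13.6% (10.6 to 17.3).

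In all, 359 peaks (28.8%, 26.4 to 31.4) lay within 10 kb of another CHD8-free peak, in 105 clusters. This was the case for 85.9% of short-period peaks, 63.1% of other multi-copy peaks, 56.7% of other tandem peaks, 38.0% of those with an alpha-length unit and 10.7% of single-copy peaks. No neighbour of their own set within 10 kb was found for 886 of the 1245 CHD8-free peaks and for 2713 of the 4727 with CHD8. The larger set with CHD8 thus had such neighbours more often.

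**Figure D4:**
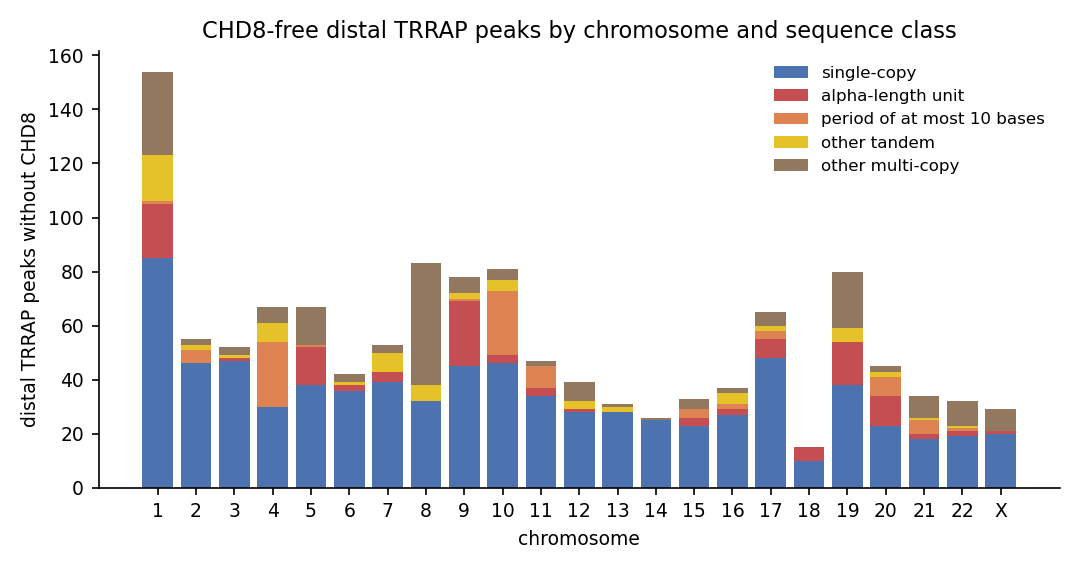
Number of CHD8-free distal TRRAP peaks (vertical axis) on each chromosome (horizontal axis), stacked by sequence class. Chromosome 1 has 154, of which 69 are in repeats; chromosome 8 has 83, of which 51 are in repeats, mostly other multi-copy sequence; chromosome 2 has 55, of which 9 are in repeats.

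The 785 single-copy peaks lay mostly inside genes. Their summits were in introns in 475 cases (60.5%, 57.0 to 63.9), outside genes in 198 (25.2%, 22.3 to 28.4) and in exons in 112 (14.3%, 11.99 to 16.9). Of the exonic ones, 25 were in coding exons and 23 in UTRs of canonical transcripts, 12 in non-coding exons and 52 in exons of other transcripts. Single-copy peaks with CHD8 had a like share in introns (59.7%, difference 0.790 points, −3.02 to 4.51), more in exons (19.5%, difference −5.23 points, −7.85 to −2.32) and fewer outside genes (20.8%, difference 4.44 points, 1.23 to 7.84).

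The rule used 1 start per gene, and alternative promoters could remain. Of the single-copy CHD8-free peaks, 24.8% (21.9 to 28.0) lay within 1 kb of the start of another annotated transcript, whereas 39.6% (38.0 to 41.2) of single-copy distal TRRAP peaks with CHD8 did, a difference of −14.8 points (−18.1 to −11.3). Among weak peaks, the shares were 25% and 40.4% (difference −15.4 points, −19.4 to −11.2). Alternative starts were thus less frequent at the CHD8-free peaks by a like amount when weak peaks alone were compared.

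Base composition set single-copy distal TRRAP summits apart from genome positions of all classes, with CHD8 or without. The median GC content within 100 bp was 61.2% at single-copy CHD8-free summits and 62.2% at those with CHD8, beside 39.8% at genome positions. The CpG ratio had medians of 0.460 and 0.504, beside 0.172. Not all CHD8-free summits were GC-rich: the median GC content was 38.8% with an alpha-length unit and 41.8% with a unit of at most 10 bases. Single-copy distal CHD8 peaks without TRRAP had a median GC content of 55.2%. A CpG-rich summit (GC above 50% and a CpG ratio above 0.6, as in CpG islands) was found in 290 of the 785 (36.9%, 33.6 to 40.4) and in 43.2% of those with CHD8, a difference of −6.30 points (−9.98 to −2.52). TRRAP peaks at gene starts were CpG-rich in 90.0% of cases. Of the 290 CpG-rich CHD8-free summits, 156 were in introns, 77 outside genes and 57 in exons, and 46.2% lay within 1 kb of another transcript start, against 12.3% of the other 495 single-copy ones. The CAMTA1 and POU3F3 sequences above are of the CpG-rich kind.

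Exact consensus words of transcription factors were counted within 100 bp of single-copy summits, on both strands, for 18 words and with no adjustment for their number. The CTCF word, AGGGGGCGC, occurred at 21 of the 785 CHD8-free peaks (2.68%), at 1.81% of those with CHD8 (difference 0.863 points, −0.177 to 2.30), at 0.255% of the positions 1 kb beside the CHD8-free summits and in 0.0454% of all genome windows. The E-box CACGTG, bound by MYC and MAX, occurred at 57 (7.26%), beside 6.12% with CHD8 (difference 1.14 points, −0.675 to 3.30), 3.25% 1 kb away and 1.85% of genome windows. The strongest single-copy peak with the E-box, in an intron of the peroxiredoxin gene PRDX4 (chrX:23667302-23667632), had a fold of 15.8. For both words the CHD8-free peaks were above their own flanks, and the interval of their difference from peaks with CHD8 included 0. The CTCF difference turned to −0.511 points among weak peaks (−1.49 to 0.891), with 1.36% without and 1.87% with CHD8, and that of CACGTG was 0.823 (−1.32 to 3.38). The GC content of the flanks was not matched.

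The AP-1 word TGANTCA, where N is any base, was at 72 CHD8-free peaks (9.17%), at 4.27% of the flanks and in 6.20% of genome windows. It was at 6.97% of the peaks with CHD8, a difference of 2.20 points (0.174 to 4.55). Among weak peaks the difference was 1.86 points and its interval included 0 (−0.577 to 4.68). The strongest single-copy peak with it, in LHFPL6 (chr13:39565727-39565930, fold 12.9), also held the POU octamer ATGCAAAT. The E-box CAGCTG of neural bHLH factors was at 17.6% of the CHD8-free peaks and 20.7% of those with CHD8 (difference −3.15 points, −5.99 to −0.0527), and at 10.9% of the flanks. Among weak peaks the difference was −3.16 points and its interval included 0 (−6.62 to 0.595). The other bHLH E-box, CAGATG, was at 11.2% of the CHD8-free peaks, 11.9% of those with CHD8 (difference −0.679 points, −2.98 to 1.92), 13.4% of the flanks and 12.6% of genome windows. The TEAD word GGAATG, which is also part of GGAATGGAA, was at 16.6% without and 15.3% with CHD8, 11.1% of the flanks and 10.9% of genome windows. The SOX word ACAATGG was at 5.61% and 6.81% (difference −1.20 points, −2.85 to 0.788), 1.53% of the flanks and 2.99% of genome windows. The SOX difference turned to 0.901 points among weak peaks (−1.16 to 3.37). The strongest CHD8-free peak with the SOX word was in an intron of PALM, which encodes a membrane protein of neurons (chr19:718312-718494, fold 12.5).

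The words typical of promoters ranged from a single peak to 8.66% of the single-copy CHD8-free peaks. The YY1 word AAGATGGCG was at 1 single-copy CHD8-free peak (0.127%), at 0.961% of those with CHD8 (difference −0.834 points, −1.22 to −0.185) and at 2.70% of all TRRAP peaks at gene starts. Among weak peaks the difference was −0.632 points and its interval included 0 (−1.17 to 0.216). That peak lay at chr17:41648072-41648241 (fold 7.69), 23292 bp from KRT17. The ETS word CCGGAAGTG was at 1 of the 785 (0.127%), beside 0.577% with CHD8 (difference −0.449 points, −0.770 to 0.174). It was at 2.07% of all TRRAP peaks at gene starts and in 0.0335% of genome windows. The NRF1 word GCGCATGCG was at 2 (0.255%), beside 0.522% with CHD8 (difference −0.267 points, −0.612 to 0.428). Its shares were 1.64% of all TRRAP peaks at gene starts and 0.0153% of genome windows. The E2F word GCGGGAA was at 4.46%, beside 5.35% with CHD8 (difference −0.896 points, −2.36 to 0.918), 9.84% of all TRRAP peaks at gene starts and 0.513% of genome windows. The SP word GGGGCGGGG was at 8.66%, beside 10.7% with CHD8 (difference −2.07 points, −4.13 to 0.305), 20.1% of all TRRAP peaks at gene starts and 0.286% of genome windows. The interval of the SP difference was without 0 among weak peaks (−2.94 points, −5.32 to −0.201). In the GC-rich sequence of CAMTA1 and NOTUM this word was present. The NFI word, TTGGC, 5 bases of any kind, GCCAA, was at 0 of the 1245 CHD8-free peaks and 0 of the 4727 with CHD8, which with Wilson upper limits allows 0.308% and 0.0812%. It is in only 0.0121% of genome windows, so its absence from sets of this size says little about NFI.

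The REST core, CAGCACC, 2 bases of any kind, GGACAG, matched 4 CHD8-free peaks, all single-copy, and 0 of the 4727 distal TRRAP peaks with CHD8 (0.321% against 0%, difference 0.321 points, 0.109 to 0.823). It matched 10 of the 5406 distal CHD8 peaks without TRRAP (0.185%) and 0.00519% of genome windows. The 4 sites lay in an intron of GRIA2, an AMPA receptor subunit gene (chr4:157220359-157220599, fold 11.99), in SCN3B, a sodium channel subunit gene (chr11:123654030-123654209, fold 10.1), in RESP18, a gene of neuroendocrine secretory granules (chr2:219331693-219331818, fold 7.21), and 4160 bp from the homeobox gene NKX1-1 (chr4:1410568-1410692, fold 7.21). The nearest CHD8 peaks were 2000 bp, 86993 bp, 19045 bp and 62820 bp away. The GRIA2, SCN3B and RESP18 peaks lay within 1 kb of the start of another transcript in the annotation. Those in SCN3B and RESP18 were 1151 and 1390 bp from the gene start. The GRIA2 peak also held a CTCF word. With up to 1 mismatch, 7 CHD8-free peaks (0.562%) and 9 with CHD8 (0.190%) matched, a difference of 0.372 points (0.0355 to 0.972). With up to 2 mismatches the shares were 1.29% and 1.31%, so the difference was seen at close matches and rested on few peaks. At exact matches the difference among weak peaks of all classes was 0.222 points and its interval included 0 (−0.0202 to 0.808). Among weak single-copy peaks it was 0.340 points (0.0193 to 1.23), resting on 2 CHD8-free peaks.

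**Figure D5:**
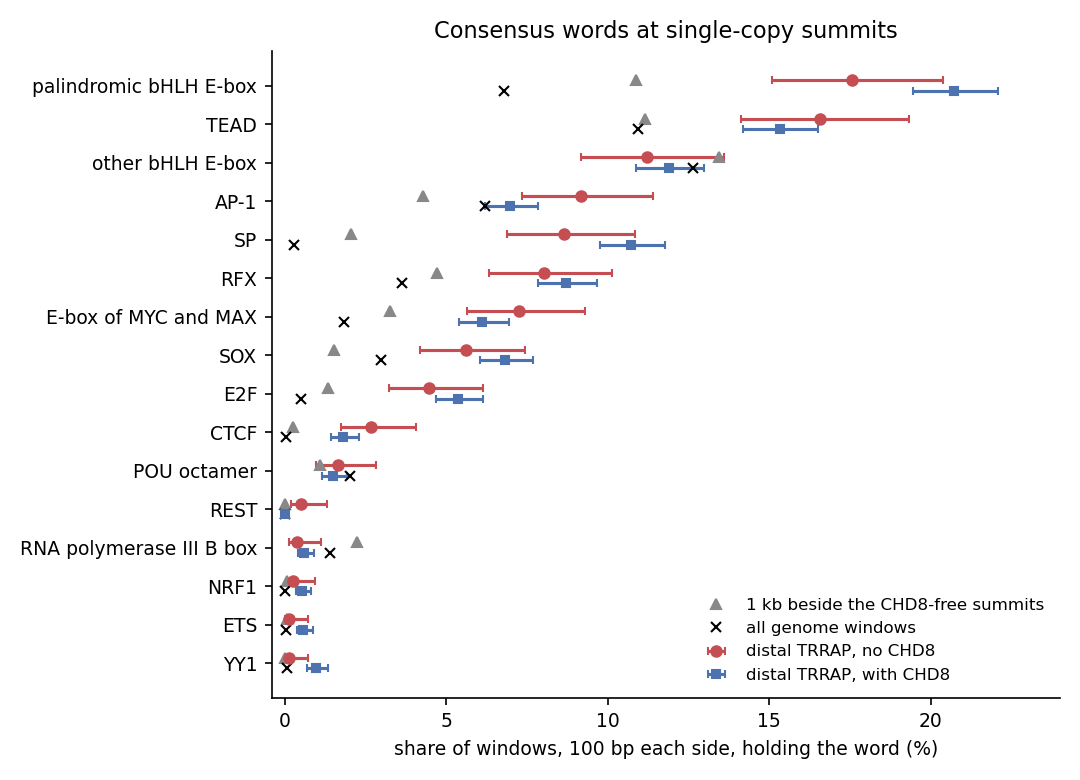
Share of windows, 100 bp on each side, holding each word (percent, horizontal axis) at single-copy summits of distal TRRAP peaks without CHD8 (circles, 785) and with CHD8 (squares, 3642), with 95% Wilson intervals, beside positions 1 kb from the CHD8-free summits (triangles) and all genome windows (crosses). The AP-1, CTCF and REST circles lie to the right of the squares and the SP, YY1 and palindromic bHLH E-box circles to the left; most intervals overlap.

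Of 7 gene lists chosen by function, the neuronal and synaptic list was the one whose difference from the peaks with CHD8 had an interval without 0, with no adjustment for the number of lists. Of its 74 genes, 8 held 11 CHD8-free peaks (0.884% of the 1245), and 12 held 16 of the 4727 peaks with CHD8 (0.338%), a difference of 0.545 points (0.102 to 1.25). The 8 were DLG2, DLGAP2, GRIA1, GRIA2, NRXN3, RIMS1, TUBB3 and UNC13A, genes of glutamate receptors, their scaffolds, transmitter release and the neuronal cytoskeleton. UNC13A, a priming factor of synaptic vesicles, held a pair, at chr19:17686701-17686872 (fold 9.60) and chr19:17680289-17680442 (fold 7.21). Synaptic genes are often long, and the length of the genes was not matched.

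For the other 6 lists the interval of the difference included 0. Of 72 neural stem cell genes, 5 held 6 CHD8-free peaks (0.482%), beside 45 peaks with CHD8 in 20 genes (0.952%, difference −0.470 points, −0.882 to 0.144). POU3F3 held 2 of them, with folds of 18.2 and 7.21. The others were in ZEB2, a zinc finger factor of neural crest and forebrain (chr2:144461356-144461692, fold 10.1), in PBX3, a homeobox cofactor (chr9:125889665-125889897, fold 9.12), in ZIC5, a zinc finger factor of the dorsal neural tube (chr13:99968342-99968558, fold 6.73), and in MSI2, an RNA-binding protein of stem cells (chr17:57518699-57518861, fold 6.73). Each of these 6 lay between 1369 and 11084 bp from a CHD8 peak.

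The WNT, Notch and BMP/TGF-beta list had 9 CHD8-free peaks in 9 of 89 genes (0.723%, with CHD8 0.825%), among them WNT5B (chr12:1605331-1605488, fold 12.5), the Notch ligand gene DLL3 (chr19:39507408-39507574, fold 8.65, in a coding exon) and NOTCH1. The axon guidance and adhesion list also had 9, in 8 of 83 genes (with CHD8 1.04%), led by the catenin gene CTNND2 (chr5:11524138-11524334, fold 10.6) and the semaphorin receptor gene PLXNA1 (chr3:127002215-127002362, fold 9.12). Cytoskeleton, matrix and YAP target genes had 12 in 10 of 80 genes (0.964%, with CHD8 0.952%), including the collagen genes COL18A1 (chr21:45430557-45430744, fold 11.04) and COL4A2 (chr13:110454312-110454684, fold 9.12). Growth factor and immediate early genes had 4 (0.321%, with CHD8 0.698%), in FGF13, FGF9, IGF2BP1 and JUN. The one in JUN, the AP-1 subunit gene, lay in its UTR, 2161 bp from the start (chr1:58781638-58781994, fold 12.5), with a CHD8 peak 435 bp away. Of 508 zinc finger genes named ZNF, 9 held a CHD8-free peak each (0.723%, with CHD8 0.973%).

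Single-copy CHD8-free peaks were spread over many genes. They lay in 462 protein-coding genes, of which 415 held 1 and 47 held 2 or more. RAD51B, a gene of homologous recombination, held 4 over its long introns, with folds of 6.73 to 9.12 and gaps to CHD8 from 4 to 61655 bp. The genes that held 3 included CCNJL, DLGAP4, SLC45A3 and TRIO. In TRIO, a gene for an exchange factor of small GTPases, the folds were 6.26, 9.60 and 10.1. These 5 genes were named after their counts were seen.

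The gene nearest to a CHD8-free peak carried CHD8 or TRRAP at its start in a share of cases that depended on which genes were counted. For 437 of the 785 single-copy peaks (55.7%, 52.2 to 59.1) the nearest protein-coding gene start carried a CHD8 peak, and for 312 (39.7%, 36.4 to 43.2) a TRRAP peak. Single-copy peaks with CHD8 had 62.1% and 43.7%, differences of −6.41 points (−10.2 to −2.62) and −3.99 points (−7.73 to −0.176). With genes of any biotype the shares at CHD8-free peaks were 29.7% and 21.5%, the difference from peaks with CHD8 was −6.75 points for CHD8 (−10.2 to −3.12), and that for TRRAP had an interval that included 0 (−3.07 points, −6.16 to 0.235). The median distance to the nearest gene start of any biotype was 12838 bp without and 10054.5 bp with CHD8.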

How the data were processed

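The peak lists of the CHD8 and TRRAP libraries were used. Per the submitters' processing notes, HISAT2, MACS2 2.1.1.20160309 and GRCh38 were involved. Control, filters and read totals are not given in the sources used here, so the depth is unknown. Each peak's fold (a ratio over background), −log10 p and −log10 q are values deposited by the authors, as is the score, which was not used. The values describe and rank peaks within the TRRAP list only. GENCODE 44 and the GRCh38 reference gave genes and sequence. Gene lists were written from general knowledge. Members, classes and lists were chosen with earlier results of these data known. The named peaks were the 5 strongest, the 5 strongest single-copy, the 3 strongest single-copy in introns, exons and outside genes, the strongest single-copy holder of a word, those in neural stem cell genes, the largest cluster and the 3 nearest to and farthest from CHD8. The strongest peaks of each repeat class and of the other gene lists were added later. No p-value was computed, since each antibody had 1 library. Wilson and Newcombe 95% intervals cover counting error only. Searches of copy number, tandem units and words were tested on simulated sequences. Python 3.11.15, numpy 2.4.6, pandas 2.3.3, pysam 0.24.0, numba 0.67.0 and matplotlib 3.10.9 were used.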

Additional observations from a re-analysis of the deposited data

Results flagged for a closer look

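Outside chromosomes 1 to 22 and X, 130 of 489 TRRAP peaks shared no base with CHD8 (26.6%). These sequences were left out by the rule and enter no comparison above. Of the 130, 111 had a multi-copy summit (85.4%), their median fold was 7.69 and the highest was 11.99. They were picked out because they hold CHD8-free TRRAP signal in sequence that was otherwise not used, and no control library could be set beside them here.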

How the results depend on the processing

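The 1245 CHD8-free distal peaks became 351 above the median rank of the TRRAP list and 811 with single-copy summits only. Their share of 20.8% became 11.7% and 18.1% there, 15.1% when CHD8 within 1 kb counted as shared, 24.2% outside 1 kb of every transcript start and 19.3% with protein-coding starts only. The CHD8 summit rule, 2.5 kb windows, a q-value of at most 0.0001 and merging kept it within its interval. Placement by any shared base gave 14.9% in exons and 40.9% in introns; with protein-coding genes only, exons had 7.79%, introns 36.9% and sequence outside genes 55.3%. Tandem summits fell from 17.4% to 3.21% with single-copy summits only, as multi-copy DNA was removed, and to 15.4% among weak peaks (−log10 q at most the median). Clusters within 50 kb held 38.3%. The nearest protein-coding gene start carried CHD8 in 49.1% and TRRAP in 34.5% of cases, in place of 22.4% and 17.8% for genes of any biotype. The multi-copy share, GC content and CpG ratio stayed within their intervals or spread. All 21 class differences under the comparisons added after seeing the data kept their sign, but they are not 21 separate checks. The classes overlap, and the limit of q at most 0.0001 kept 1244 of the 1245 peaks, so its differences could hardly change. For short units among peaks with no neighbour within 10 kb, the interval included 0. Over all 1245 peaks, of the words whose difference from peaks with CHD8 lay below 0 with its whole interval, 4 were more frequent than 1 kb away: CAGCTG by 4.30 points, SOX by 2.33, YY1 by 0.0402 and SP by 4.34; the cause was not tested. The planned share of repeat-masked bases was not run, because the reference used here carries no repeat masking. No paired analysis was possible because each antibody had 1 library. Because the depth is unknown, absence of CHD8 and CHD8 below the threshold of its list cannot be told apart.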
